A study of Mus musculus with 8 samples.

Results

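The DNA damage checkpoint genes described here are 9 named genes, Atr, Atrip, Hus1, Clspn, Chek1, Atm, H2afx, Mdc1 and Chek2, out of 22238 protein-coding genes in the mouse annotation. They were taken as a fixed list, chosen with earlier results of these data known. The deposited binding sites of E2f3 and Myc were examined within 1 kb of every annotated start of each gene, and separately within 5 kb. The sites come from ChIP-exo-seq of mouse intestine, in which antibody-captured DNA is digested by an exonuclease as far as the crosslinked protein, so that a bound position is read to within a few bases. Crypt cells and villus cells were each taken from wild type mice, called control here, and from mice with Rb deleted (Rb KO, called Rb-deficient here) by the inducible intestinal recombinase Ah-cre, and all were on a mixed background of C57BL/6, 129 and FVB/N. Each combination of cell type, genotype and antibody had 1 library, which makes 8 libraries. The labels name the antibodies as from Santa Cruz and do not say whether the control mice carried the recombinase. The age of the mice, the agent that induced the recombinase, the fraction of cells that lost Rb and the number of mice per library are not known from the material at hand. Lists of binding sites do not measure RNA, so neither the loss of Rb nor the labelled cell type could be checked against marker genes.

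The checkpoint stops the cell cycle when DNA is damaged or replication stalls. Atr, with its partner Atrip, is the kinase recruited to single-stranded DNA. The 9-1-1 clamp, of which Hus1 is a subunit, helps activate it, and claspin (Clspn) brings it to its main target, the kinase Chek1. Atm is the kinase of the double-strand break branch. It phosphorylates the histone variant encoded by H2afx, on which the adaptor Mdc1 assembles, and it activates the kinase Chek2. E2F transcription factors act on genes needed for DNA synthesis and are restrained by the Rb protein. Crypts hold the dividing cells of the intestinal epithelium and villi its differentiated cells.

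For E2f3, crypt gave 32666 (control) and 27396 (Rb-deficient) sites, and villus gave 7405 and 14843. For Myc, crypt gave 159181 and 31397 and villus 7223 and 4119. Each site is 1 bp with a score that the authors deposited, from 2 to a cap of 999. No scale between lists is stated and the sequencing depth is unknown. Scores are therefore ranked only within a library, and a score of 1 library is not compared with that of another. With 1 library per group there is no replicate, and the comparisons are descriptions without a statistical test.

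Sequences under a library's best E2f3 site are given first, for each of the 8 genes with one. A further site of Mdc1 and of Chek2 is also shown. The Hus1 run is centred on the Rb-deficient villus site, not on the Rb-deficient crypt site 2 bp away. Each run below is 29 bases of mm9 in the direction of the gene, with the site at its centre. Capitals mark the E2F motif (any of TTCCCGC and TTCGCGC and TTGCCGC and TTGGCGC, on either strand). At Atr, Clspn, the downstream Mdc1 site and Chek2 at -17, no such match lies in the 29 bases, and capitals mark the 5-base core CCCGC or CGCGC or GCCGC or GGCGC, on either strand and with overlapping matches joined. They are shown because they hold the positions that several libraries shared, or that were listed in Rb-deficient and not in control mice. The Chek2 run at -183 lies under the lower of the Chek2 sites of Rb-deficient crypt, and that at -17 under the higher one.
Chek1, chr9:36534183-36534211, minus strand, 27 bp upstream of a start: agcaggttttgGCGGGAAaagctgtgcat
Atm, chr9:53344701-53344729, minus strand, 2 bp upstream of a start: gatccgtgcacGCGGGAAaaggcgaagcg
Mdc1, chr17:35978303-35978331, plus strand, 143 bp upstream of a start: tggaaatctgcGCGGGAAgtagtccgtgg
Chek2, chr5:111268839-111268867, plus strand, 183 bp upstream of the start: cgggattagccGCGGGAAaccaagacgtc
H2afx, chr9:44142512-44142540, plus strand, 272 bp upstream of the start: gcgtttaaatTTCGCGCgctctacacgga
Hus1, chr11:8911089-8911117, minus strand, 28 bp downstream of a start: cgccatgaagtTTCGCGCCAAgatcgtgg
Atr, chr9:95757935-95757963, plus strand, 67 bp upstream of a start: agggaaagtggGCGGGcacgtccgctgtc
Clspn, chr4:126234271-126234299, plus strand, 36 bp downstream of a start: agctggagacgGCGGGagctgtcgccgtc
Mdc1, chr17:35978596-35978624, plus strand, 11 bp upstream of a start: ctggtGGCGCGCGCGCGCGgattcagtcg
Chek2, chr5:111269005-111269033, plus strand, 17 bp upstream of the start: ggtttaGCGCCactccactggcggaggct

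At Chek1, Atm, the upstream site of Mdc1 and the upstream site of Chek2 the same 7 bases, GCGGGAA, were read in the direction of the gene, which is TTCCCGC on the other strand. In each of these 4 the site lay exactly at the centre of the motif, once 1 was added to the deposited position. That addition was chosen because the motif centre then lay at a median offset of 0 bp, against 1 bp as deposited. The exact centring is therefore partly set by that choice. The program that called the sites may also use sequence to place them. Agreement of libraries on the same base of a motif is then not independent evidence of position. H2afx and Hus1 instead held TTCGCGC on the gene strand. The Hus1 run holds a second match on the other strand that overlaps the first, so 10 bases are in capitals. The Hus1 site lay in the coding sequence of the first exon, 10 bp after the first coding base in Rb-deficient villus and 8 bp after it in Rb-deficient crypt. An E-box, CACGTG, the sequence recognised by the Myc and Max dimer, also lay within 50 bp of the Hus1 site.

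The surroundings of sites that lay outside the exons of their own gene can be shown at greater length, 101 bases with the site at the centre and the E2F motif in capitals. These are the H2afx site of Rb-deficient villus and the upstream site of Mdc1, both upstream of every annotated start of their gene.
H2afx, chr9:44142475-44142575, plus strand: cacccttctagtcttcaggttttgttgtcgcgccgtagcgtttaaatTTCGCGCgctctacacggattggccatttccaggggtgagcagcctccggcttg
Mdc1, chr17:35978267-35978367, plus strand: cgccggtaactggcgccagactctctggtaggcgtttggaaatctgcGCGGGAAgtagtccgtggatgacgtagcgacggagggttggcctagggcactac

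E2f3 was found at 8 of the 9 genes in Rb-deficient crypt and at 4 in control crypt, at 5 in Rb-deficient villus and at 3 in control villus. The 4 genes of control crypt were Chek1, Atm, H2afx and Mdc1. Rb-deficient crypt had these 4 and also Atr, Hus1, Clspn and Chek2, and lacked only Atrip. Control villus had Chek1, Atm and Mdc1, and Rb-deficient villus had Hus1, Chek1, H2afx, Mdc1 and Chek2. Over all protein-coding genes, the share with an E2f3 site within 1 kb was 21.2% in Rb-deficient crypt, 15.8% in control crypt, 13.0% in Rb-deficient villus and 4.84% in control villus. The corresponding shares of the 9 genes were 88.9%, 44.4%, 55.6% and 33.3%, above those of all genes in all 4 E2f3 libraries. The 9 genes were chosen with earlier results of these data known, so that excess is not independent of the choice.

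**Figure D1:**
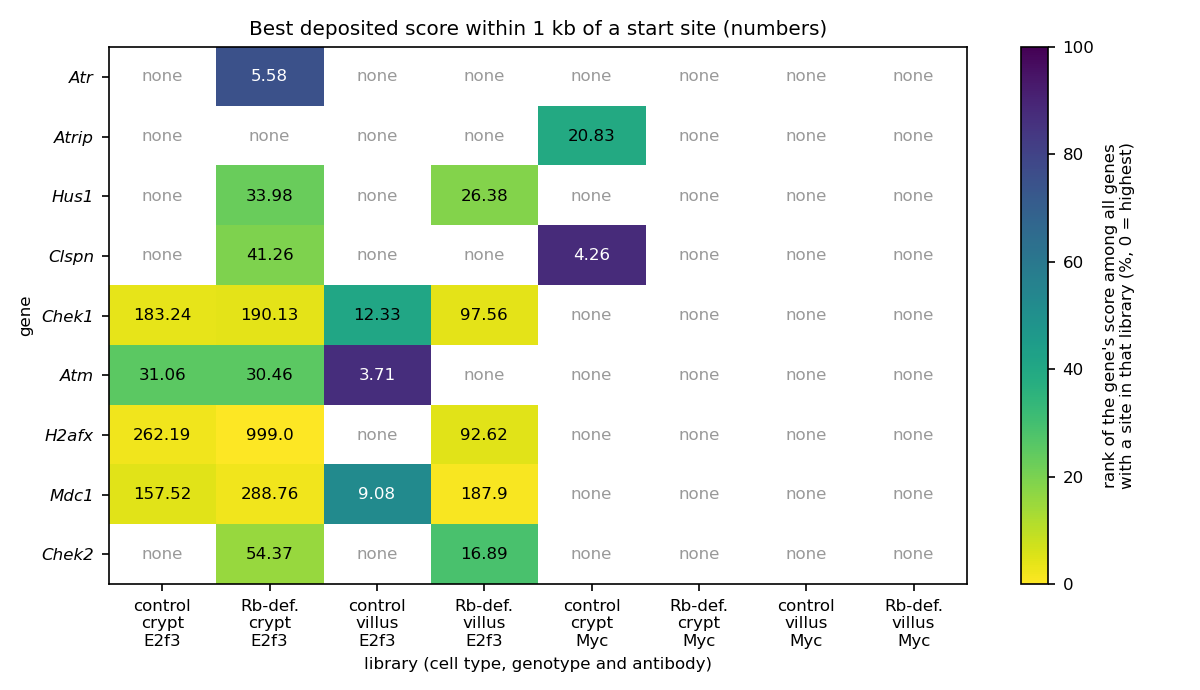
Best deposited score of a site within 1 kb of a start for each of the 9 genes (rows) in each of the 8 libraries (columns), printed in the cell, with the colour giving the rank of that score among all genes with a site in the same library (0% is the highest). Chek1 and Mdc1 have an E2f3 site in all 4 E2f3 libraries, and Atrip in none of them.

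**Figure D2:**
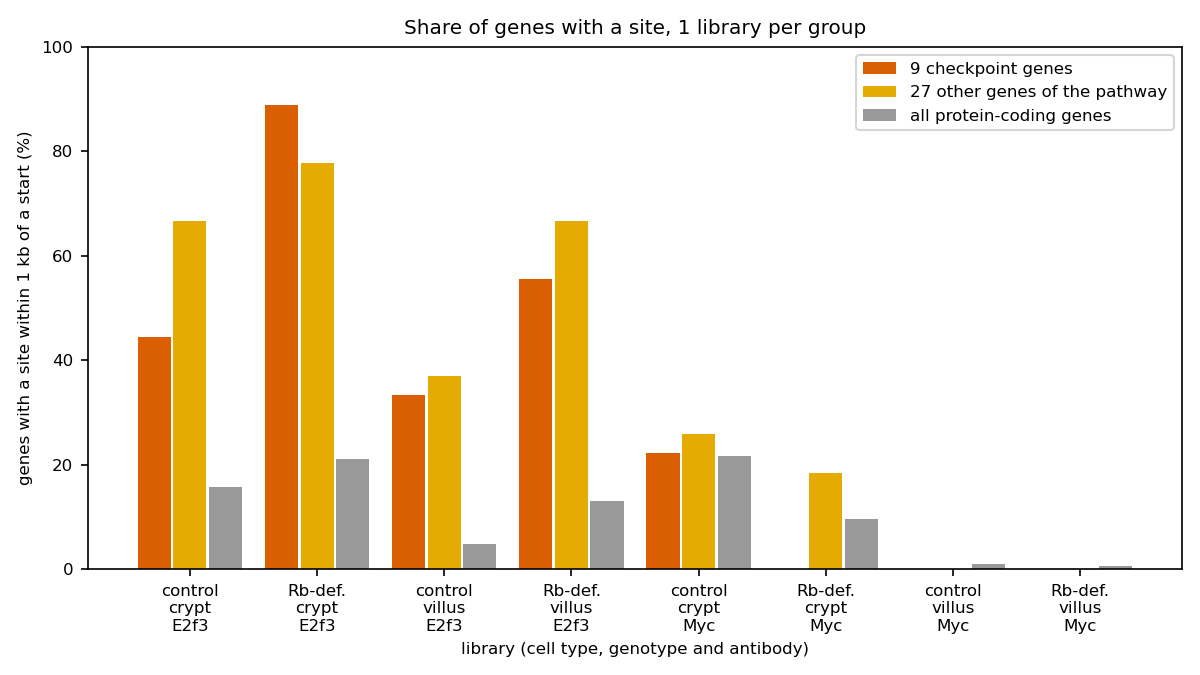
Percent of genes with a site within 1 kb of a start in each library, for the 9 checkpoint genes, for 27 other genes of the pathway and for all protein-coding genes. In the E2f3 libraries both lists, chosen with earlier results of these data known, stand above all genes. In control crypt Myc the 9 genes (22.2%) lie at the share of all genes (21.7%).

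Chek1, the effector kinase of the Atr branch, had a high-ranked E2f3 site in 3 of the 4 libraries. The gene lies at chr9:36516067-36534650 on the minus strand, with 10 annotated transcripts and 9 start sites. In crypt its best score was 183.24 in control and 190.13 in Rb-deficient mice, and in villus it was 12.33 and 97.56. Among genes with an E2f3 site this put Chek1 at rank 131 of 3510, 198 of 4718, 442 of 1077 and 118 of 2890 in that order. It stood in the top 5% of bound genes in both crypts and in Rb-deficient villus (3.73%, 4.20% and 4.08%) and at 41.0% in control villus. In all 4 libraries the best site was the same base, 36534197 on chromosome 9, in the 5' UTR of the longer transcripts and 27 bp upstream of the start of a shorter one. A second and lower site, further into the gene and in an intron, was listed at 36534064 in Rb-deficient crypt (17.42) and at 36534073 in control villus (7.0), 28 and 37 bp upstream of another start. No E2F motif lay within 50 bp of that second site. Control villus is thus the library in which Chek1 was lowest in rank, with the site at the same base.

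Mdc1, the adaptor that binds the modified histone, was the other gene with a site in all 4 E2f3 libraries. It lies at chr17:35978460-35996615 on the plus strand, with 2 start sites. Every E2f3 library listed 2 sites within 1 kb of its starts. The upstream site lay at 35978317 on chromosome 17 in all 4 libraries. Its crypt scores were 140.69 in control and 232.83 in Rb-deficient mice, and its villus scores 8.46 and 86.97. The downstream site, in the 5' UTR, lay at 4 different positions from 35978573 to 35978610, a spread of 37 bp. Its scores were 157.52, 288.76, 9.08 and 187.9 in the same order, the higher of the pair in each library. No E2F motif lay within 50 bp of any of these 4 positions. Between 12 and 15 matches to the 5-base core did, counted on either strand with overlapping matches included. Most of these matches overlap one another in the run of capitals shown above for the downstream site. They are not that many separate cores, and the number of matches around other sites was not computed. Mdc1 ranked 164 of 3510 bound genes in control crypt, 101 of 4718 in Rb-deficient crypt and 30 of 2890 in Rb-deficient villus, against 561 of 1077 in control villus.

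H2afx, which encodes the histone variant marked at double-strand breaks, had a high-ranked site in 3 libraries and none in control villus. It is a short gene at chr9:44142798-44144154 on the plus strand with 1 transcript. The score was 262.19 in control crypt, where the gene ranked 72 of 3510. In Rb-deficient crypt it was at the cap of 999, which 85 genes reached in that library, so its rank there is tied. In Rb-deficient villus it was 92.62, rank 130 of 2890. The site lay at 44142526 in both crypts and 1 bp away in Rb-deficient villus, 272 and 273 bp upstream of the only annotated start. No E2f3 site was listed within 5 kb of that start in control villus.

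Atm, the kinase of the double-strand break branch, showed the opposite presence in villus, with a site in control and none in Rb-deficient villus. It lies at chr9:53247254-53344845 on the minus strand. Its best site lay at 53344715 on chromosome 9 in control crypt (31.06), Rb-deficient crypt (30.46) and control villus (3.71). In control villus this was among the lowest of the list, at rank 937 of 1077 bound genes, so its presence there rests on a score close to the minimum. In the crypts Atm ranked 888 of 3510 and 1184 of 4718. Atm shares its upstream region with Npat, a histone gene coactivator that starts on the opposite strand. The best site lay 437 bp upstream of the Npat start. A second site in the crypts, at 53345127 in control (15.97) and 53345132 in Rb-deficient mice (17.33), lay 25 and 20 bp upstream of the Npat start and 282 and 287 bp upstream of Atm. The sites cannot be assigned to one gene of the pair.

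Hus1 and Chek2 had an E2f3 site in both Rb-deficient libraries and in neither control library. Hus1 lies at chr11:8893140-8911194 on the minus strand and Chek2 at chr5:111269036-111303152 on the plus strand. Hus1 scored 33.98 in Rb-deficient crypt (rank 1075 of 4718) and 26.38 in Rb-deficient villus (rank 541 of 2890), with sites 2 bp apart. Chek2, the effector kinase of the Atm branch, scored 54.37 in Rb-deficient crypt (rank 725 of 4718) and 16.89 in Rb-deficient villus (rank 834 of 2890), with the best sites 17 and 1 bp upstream of the start, 16 bp apart. Each library listed a second, lower Chek2 site elsewhere, at 111268853 in Rb-deficient crypt (9.97), 57 bp upstream of the start of the divergent gene Hscb, and at 111269172 in an intron in Rb-deficient villus (3.25). The best Chek2 sites lay 223 bp (Rb-deficient crypt) and 239 bp (Rb-deficient villus) upstream of the same Hscb start. They cannot be assigned to Chek2 or Hscb alone. The presence of a site in the 2 Rb-deficient E2f3 libraries alone out of the 8 was shared by 374 other genes, 1.68% of all. None of the Hus1 and Chek2 sites reached the top 15% of bound genes, with ranks of 22.8% and 18.7% for Hus1 and 15.4% and 28.9% for Chek2.

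Clspn and Atr had an E2f3 site within 1 kb in Rb-deficient crypt alone. Clspn lies at chr4:126234179-126271147 and Atr at chr9:95758016-95852063, both on the plus strand. For Clspn, the mediator between Atr and Chek1, the site at 126234285 on chromosome 4 scored 41.26, rank 915 of 4718, and lay in the 5' UTR. For Atr it lay at 95757949 on chromosome 9 and scored 5.58, rank 3545 of 4718, and it is the weakest E2f3 placement among the 8 genes bound there. The Atr site also lay 339 bp from a start of another gene, 1700065D16Rik, so it cannot be assigned to Atr alone. Atrip, the partner of Atr, at chr9:108960447-108976638 on the minus strand, had no E2f3 site within 1 kb in any library, although the E2F motif lay within 1 kb of a start. Its 8-library pattern, a control crypt Myc site alone, was that of 2152 other genes (9.68% of all), whereas an E2f3 site in Rb-deficient crypt alone, as at Atr, was seen at 726 (3.26%). The order by score of the 8 genes with a site in Rb-deficient crypt was H2afx, Mdc1, Chek1, Chek2, Clspn, Hus1, Atm and Atr. In Rb-deficient villus it was Mdc1, Chek1, H2afx, Hus1 and Chek2. No error is known for a score, so neighbours in these orders cannot be said to differ.

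Set against the other genotype, 3 of the 9 genes (Hus1, H2afx and Chek2) had an E2f3 site in Rb-deficient but not control villus, and 1 (Atm) in control but not Rb-deficient villus. The shares of all genes were 8.98% and 0.823%. In crypt, 4 (Atr, Hus1, Clspn and Chek2) had a site in Rb-deficient mice only and none of the 9 in control only, where the shares of all genes were 8.35% and 2.91%. When each E2f3 list was cut to its 7405 highest-scored sites, the villus counts were still 3 and 1, with the same genes, beside 4.0% and 1.5% of all genes (890 and 334 genes). In crypt the counts at that length were 3 and 0, since Atr fell out, beside 3.27% and 0.571% of all genes. Within 5 kb the villus counts were again 3 and 1 (12.2% and 1.44% of all genes). The crypt counts within 5 kb were 3 and 1 (9.07% and 6.10%), since Clspn had a control crypt site there and Atrip had one in control crypt only. With sites of a score of at least 10, the villus counts were 4 and 0 (3.77% and 0.504%), Mdc1 being added and Atm no longer listed in control villus. The crypt counts at that score were 3 and 0 (4.33% and 1.77%). Of the 2 deposited crypt lists the control one is the longer. With 1 library per group, the genotype and the library cannot be told apart.

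Set against the other cell type, 1 gene (H2afx) had a site in control crypt but not control villus and none the reverse, with 11.4% and 0.454% of all genes. In Rb-deficient mice 3 (Atr, Clspn and Atm) had a site in crypt but not villus and none the reverse, with 9.86% and 1.64% of all genes. In both genotypes every gene found in villus was also found in crypt. The villus lists are the shorter ones in both genotypes. At 7405 sites each, H2afx was still in control crypt and not in control villus, beside 1.92% of all genes, and none of the 9 the reverse (1.61%). Clspn and Atm were in crypt but not villus of Rb-deficient mice (2.43% of all genes), and none of the 9 the reverse (1.92%). Each of the 4 E2f3 libraries enters both a genotype and a cell type comparison.

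**Figure D3:**
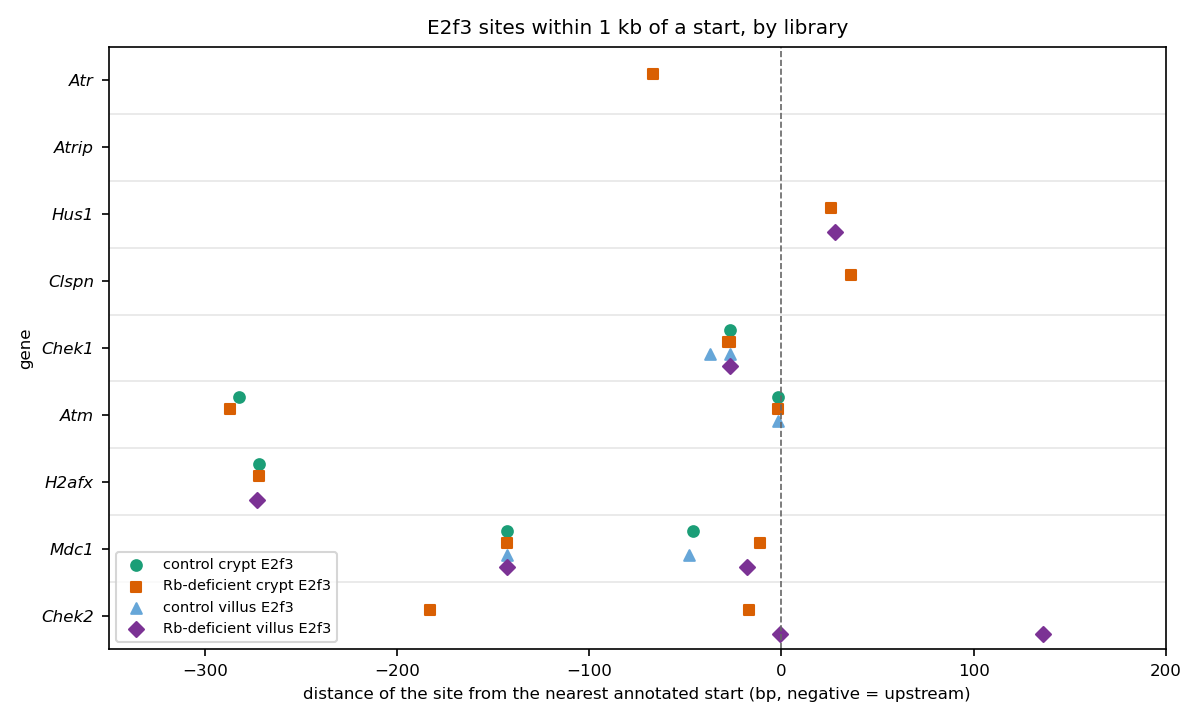
Distance of each E2f3 site from the nearest annotated start of its gene (x axis, in bp, negative upstream) for the 9 genes (rows), with 1 symbol per library. All 30 sites lie within 287 bp of a start, and at the best sites of Chek1, Atm and H2afx and the upstream site of Mdc1 the libraries fall on the same position or 1 bp apart.

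The E2f3 sites lay close to the starts. Within 1 kb the 4 libraries listed 30 member sites at 21 positions, and the farthest lay 287 bp from a start. Of these sites 26 lay upstream of the nearest start and 4 downstream. Part of the 26 were nonetheless inside the gene, past an earlier start. These were all Chek1 sites, the Atm site at 53344715 and the downstream Mdc1 sites. They lay in the 5' UTR, or in an intron at the second Chek1 site. Over all E2f3 sites within 1 kb of a start, between 62.4% and 72.9% per library lay within 300 bp. The median distance of the member sites was 94 bp in control crypt and 32 bp in Rb-deficient crypt, beside 186 and 135 bp over all promoter sites. In villus it was 37 bp in control and 28 bp in Rb-deficient mice, beside 203 and 128 bp. All 6 genes with a site in 2 or more E2f3 libraries had at least 1 pair of sites from different libraries within 20 bp. The share of all genes with such a pair was not computed, so this is not read as particular to the 6. The starts themselves differ in number, with 9 annotated for Chek1 and 1 each for H2afx and Chek2, so a nearest distance is easier to keep small at Chek1.

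The E2F motif lay within 50 bp of the best site in 3 of the 4 bound genes in control crypt (Chek1, Atm and H2afx), 5 of 8 in Rb-deficient crypt (these and Hus1 and Clspn), 2 of 3 in control villus (Chek1 and Atm) and 3 of 5 in Rb-deficient villus (Hus1, Chek1 and H2afx). Over all promoter sites, which are not limited to the best site of a gene, the shares were 36.3%, 31.4%, 54.6% and 36.6%. Of the 21 member positions, lower sites included and libraries pooled, 11 had the motif within 50 bp. Windows of the same 101 bp around all annotated starts held it in 4.48%. The 5-base core lay within 50 bp of the best site of every bound member in these libraries, and also of 74.3%, 85.5%, 79.0% and 86.9% of all promoter sites in the same order and in 52.4% of the start windows. Once 1 was added to deposited positions, between 75.5% and 87.7% of E2f3 sites with a motif within 50 bp lay exactly at its centre. The placement of sites and the motif are therefore not independent, also since that addition was chosen on the motif. Within 1 kb of a start, all 9 genes held the E2F motif, as did 43.7% of all genes, and 6 of 9 held an E-box (39.2% of all genes). Genes with more starts had more sequence searched.

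In control crypt, Myc was found at these genes at about the share of all genes. Within 1 kb, the control crypt Myc list had a site at Atrip and at Clspn, 2 of 9 or 22.2%, beside 21.7% of all genes. None of the 9 was listed for Myc in Rb-deficient crypt (9.63% of all genes), control villus (1.05%) or Rb-deficient villus (0.607%). With only 9 genes, a count of 0 says little beside shares this low. The Atrip site, at 108972681 on chromosome 9 with a score of 20.83, lay 648 bp upstream of the start of a retained-intron transcript and inside an intron. The Clspn site, at 126259489 with a score of 4.26, again lay in an intron. It was 926 bp downstream of the start of a non-coding transcript at 126258563. That start is far inside the gene, which begins at 126234179. With starts of coding transcripts only, no gene had a Myc site within 1 kb. The Clspn site is also the nearest to the 1 kb limit on the inside, and the nearest on the outside were the Atrip sites at 1185 bp (Myc, 6.9) and 1198 bp (E2f3, 2.65), both in control crypt.

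Within 5 kb, E2f3 added Atrip and Clspn in control crypt, for 6 of 9 genes (28.3% of all genes), and no gene in Rb-deficient crypt (8 of 9; 31.3%), control villus (3 of 9; 8.46%) or Rb-deficient villus (5 of 9; 19.2%). Myc had 4 of 9 in control crypt (57.2% of all genes), Clspn alone in Rb-deficient crypt (22.9%) and no gene in control villus (4.49%) or Rb-deficient villus (2.69%). The 4 genes of control crypt Myc were Atrip, Clspn, Atm and Chek2. Its strongest site upstream of a member was at 126232674 (34.27), 1505 bp upstream of Clspn. Its Chek2 site (12.91) lay in an intron 4309 bp past the start, and its Atm sites lay in an intron (7.2) and past the end of the gene (27.58). Near Clspn, an intronic place about 2 kb past the start of a non-coding transcript was listed for both factors in both crypts. The E2f3 sites lay at 126260619 in control (12.28) and 126260630 in Rb-deficient crypt (10.49), and the Myc sites at 126260612 (64.62) and 126260588 (7.68). All of these lay nearer to a start of another gene, Gm12936, at 1423 to 1465 bp, than to any Clspn start. Upstream of Mdc1, further E2f3 sites lay at 35975248 (52.75 in Rb-deficient crypt and 32.73 in Rb-deficient villus) and at 35975237 in control crypt (27.16). These are 3 and 14 bp from a start of Tubb5, a tubulin gene, and 3212 and 3223 bp upstream of Mdc1. Another, at 35974086 and 81 bp from a Tubb5 start, scored 14.64 in control crypt, 46.35 in Rb-deficient crypt and 11.94 in Rb-deficient villus. Control villus listed none of these sites.

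E2f3 sites were also listed at most other genes of the pathway in 3 of the 4 libraries. Of 27 further genes, the control crypt list had an E2f3 site within 1 kb of 18 and the Rb-deficient crypt list of 21. In villus the numbers were 10 (control) and 18 (Rb-deficient). These are 66.7%, 77.8%, 37.0% and 66.7% of the list in that order, and each stands above the share of all genes in its library. The list was chosen with earlier results of these data known, so that excess is not independent support. Cut to 7405 sites per list, the numbers were 12, 14, 10 and 17, beside 5.15%, 7.85%, 4.84% and 7.34% of all genes. Among 11 sensors of damage the numbers were 8, 8, 5 and 7, and among 7 mediators 5, 6, 4 and 5. Among 9 effectors they were 5, 7, 1 and 6, and the 1 effector of control villus was Wee1, the kinase that holds Cdk1 inactive. Within 5 kb, 3 effectors had a site in control villus, with Trp53 (7.99) and Cdkn1a (3.84) added, and 7 in Rb-deficient villus. The shares of all genes at that distance were 8.46% and 19.2%. For each role, the genes with the highest scores in Rb-deficient villus were as follows. Among sensors these were Rpa2 (56.84) of the single-strand binding complex, Rad9a (42.03) of the 9-1-1 clamp and Nbn (24.95) of the complex that recruits Atm. Among mediators they were Tipin (81.3), which with Timeless travels with the fork, and Rnf168 (80.15) and Brca1 (66.72), which act on ubiquitin at breaks. Among effectors they were Wee1 (89.46), the mitotic kinase Plk1 (55.91) and the phosphatase Cdc25a (45.23).

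These 9 genes were chosen as high in Rb-deficient villus, and of all genes with a site there 69.1% had none in control villus. Among the 9, Rnf168, Plk1 and Cdc25a had none, and the control villus scores of the other 6 were 4.25 for Rpa2, 11.11 for Rad9a, 47.02 for Nbn, 30.4 for Tipin, 22.42 for Brca1 and 56.9 for Wee1. No E2f3 site was listed within 1 kb in any of the 4 libraries for Rad17, the loader of the 9-1-1 clamp, for Etaa1, an activator of Atr, for Rpa3, a subunit of the single-strand binding complex, for Trp53bp1, a break mediator, or for Trp53, which encodes p53. For Trp53 and Trp53bp1 E2f3 sites were listed within 5 kb, in 4 and 3 of these libraries. Myc had a site at 7 of the 27 genes in control crypt, which is 25.9% beside 21.7% of all genes. In Rb-deficient crypt it had one at 5, which is 18.5% beside 9.63%. Neither villus Myc list had any of the 27, where 1.05% (control) and 0.607% (Rb-deficient) of all genes had one. Rad50, Rnf8, Rnf168 and Timeless were in both Myc crypt lists, with scores of 139.24, 21.69, 99.05 and 31.05 in control crypt and 26.26, 4.34, 13.14 and 7.38 in Rb-deficient crypt.

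**Figure D4:**
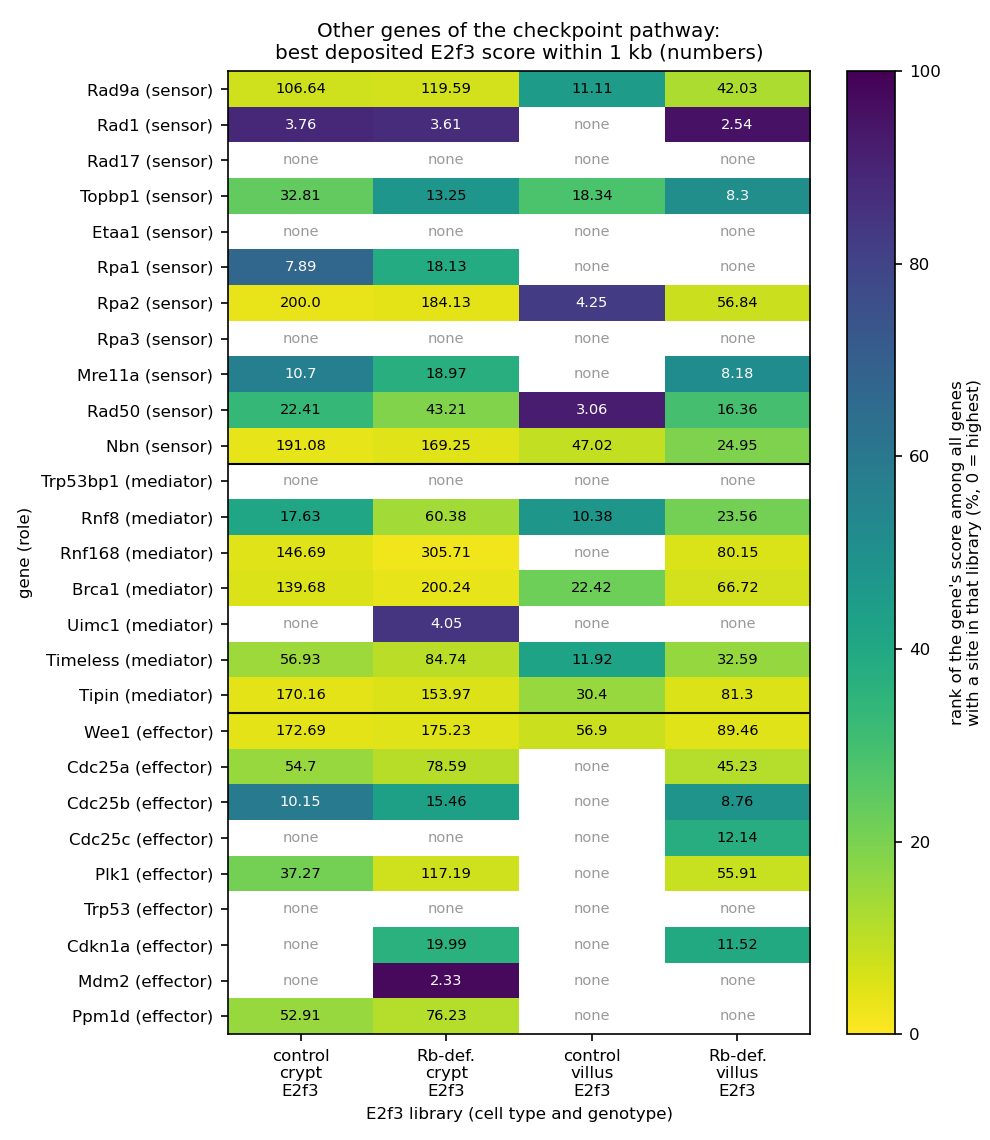
Best deposited E2f3 score within 1 kb of a start for 27 other genes of the checkpoint pathway (rows, grouped by role) in the 4 E2f3 libraries (columns), printed in the cell, with the colour giving the rank among all genes with a site in that library (0% is the highest). Of the 9 effectors at the bottom, only Wee1 has a site in control villus and 6 do in Rb-deficient villus, beside 4.84% and 13.0% of all genes (3 and 7 effectors within 5 kb).

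For genes with a site in 3 or more libraries, the genes of the most similar pattern were sought among those present in the same libraries, by the mean difference in score percentile within library. Chek1 was closest to Cyp39a1 and Slc25a27 (1.84 points over 4 libraries, genes that carry the same best scores) and to Hmgb2 (1.93), out of 401 other genes with its presence pattern. Mdc1, with the same presence, was closest to Hinfp (1.28), Pbk (3.06) and Depdc5 (3.27). H2afx was closest to Anp32e (0.419 points over 3 libraries), Nucks1 (1.41) and Incenp (1.51) out of 570. Atm was closest to Npat (0), whose window takes in the same sites, then to Map4k3 (4.86) and Tctn3 (5.11), out of only 60 other genes (0.270% of all) with a site in both crypts and control villus but not in Rb-deficient villus. Nothing is read from this on shared control.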

How the data were processed

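Site lists of 8 ChIP-exo-seq libraries were used, 1 per group, grouped by the sample titles. The submitters' processing notes name Bowtie2 2.2.1, MACS2 2.0.10 and the build mm9. By their file names, the lists keep GEM events that coincide with a MACS2 peak, after a merge and with duplicate reads retained. The authors deposited a score for each site and no unit for it. The nature of the merge, the GEM settings and read numbers are unstated in the sources used here. An input library was not used here.

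Deposited positions were taken to count from 0 and 1 was added, since the E2F motif centre then lay at a median offset of 0 bp in the 4 E2f3 libraries. Start sites (70021, all transcripts of protein-coding genes) came from GENCODE M1 and sequence from NCBIM37, the assembly of mm9. Between 153 and 204 sites per list lay outside its assembled nuclear chromosomes. All 27 pathway genes were matched, Rad9a through its older symbol Rad9. A gene's score is its best site within the window, also where a site serves neighbouring genes. Named genes were the 9 members, the 3 best per role, those with no site, neighbours and genes of like pattern. The members and lists were chosen with earlier results of these data known. Scripts ran under Python 3.11.15 with numpy 2.4.6 and were tested on simulated data.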

Additional observations from a re-analysis of the deposited data

How the results depend on the processing

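Of 90 alternative values for 25 counts, 74 stayed within 1.5 times the reported one. The 74 include counts of 0 that stayed at 0, as for Myc in control villus, which say little on stability. With sites of a score of at least 10 only, control villus E2f3 kept 1 of its 3 genes (Chek1), and 3 genes rather than 1 had a site in control crypt but not control villus. That last count was 3 within 5000 bp and 0 within 250 bp, since the H2afx site lies 272 bp from the start. The share of all genes was not computed for this cell type comparison at these settings. It was also not computed for control villus E2f3 at a score of at least 10. These shifts are therefore not read as particular to the checkpoint genes. Control crypt Myc had 2 genes within 1 kb, 4 within 5000 bp, 1 with a score of at least 10, and 0 within 250 bp, with coding starts only or at 4119 sites per list. Rb-deficient crypt Myc went from 0 to 1 within 5000 bp. The E2F motif was at 8 rather than 5 best sites in Rb-deficient crypt with the 5-base core, and at 5 rather than 3 in Rb-deficient villus with that core or within 250 bp. Of the 27 pathway genes, within 5000 bp, Myc had 16 rather than 7 in control crypt, where 57.2% of all genes had a site. It had 8 rather than 5 in Rb-deficient crypt (22.9% of all genes) and 1 rather than 0 in Rb-deficient villus (2.69%). The counts of genes with a site in Rb-deficient but not control mice stayed between 2 and 4 in villus and 3 and 4 in crypt under every alternative run. Depth is unknown, so an absent site may lie below the threshold of its list.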

Other observations

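Inside the 9 genes, over 5 kb from any start, sites were no denser than in the genome as a whole. Over 223 kb the control crypt Myc list had 11 such sites, in Atr, Hus1, Clspn, Atm, Mdc1 and Chek2, which is 4.93 per 100 kb beside 5.99 over the assembled chromosomes. Rb-deficient crypt Myc had 1, in Chek2 (0.449 per 100 kb beside 1.18). E2f3 had 1 in control crypt, in Atm, and 2 in Rb-deficient crypt, in Clspn and Atm (0.449 and 0.897 per 100 kb beside 1.22 and 1.02). Both villus E2f3 lists had none, beside 0.272 (control) and 0.552 (Rb-deficient) per 100 kb over the assembled chromosomes. Both villus Myc lists had none, beside 0.264 and 0.148. At such rates a count of 0 over 223 kb says little. These counts are small and have no replicate.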
